A study of Mus musculus with 14 samples.

Results

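The Mos kinase cascade and its targets in the metaphase II arrest were described by 9 genes of the count table, listed by name. They were Mos, Map2k1, Map2k2, Mapk3, Rps6ka1, Rps6ka2, Rps6ka3, Fbxo43 and Fbxo5, of 24064 genes in all. RNA of single mouse oocytes was sequenced in 14 libraries, which were read as 10 oocytes because 4 names are each carried by 2 libraries. The sample descriptions number the 2 libraries of such a name as separate oocytes, so this reading departs from them. The column of 1 of the f/f libraries writes the name C3 with letter and digit swapped and was taken as C3. There were 4 wt/wt oocytes (wt1, wt3, wt4 and wt5) of strain C57BL/6J, with both Kdm1a alleles intact. With libraries of a shared name read as 1 oocyte, there was 1 f/f oocyte (C3) of a mixed B6;129 strain. It was homozygous for a Kdm1a allele with loxP sites around its first exon and carried no cre. The mutant group held 5 oocytes of the same mixed strain, named D1, D2, D3, D4 and D7. They came from Kdm1a f/f females carrying a cre driven by the Zp3 promoter, which is active in growing oocytes, so Kdm1a was lost during oocyte growth and not before. Animals' ages and the female each oocyte came from are not given in the labels, so p-values measure the spread between these oocytes, and every n rests on reading a shared name as 1 oocyte. The wt/wt and f/f oocytes together are called control oocytes. Strain differed between the wt/wt and the other oocytes, and so did the form of the library names, whose meaning the labels do not give. The effects of strain, of a difference that goes with the names and of the floxed allele cannot be told apart.

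A mammalian egg waits for sperm at metaphase of the second meiotic division. Mos is a kinase made by oocytes from stored mRNA. It phosphorylates the MAP kinase kinases MEK1 and MEK2 (Map2k1 and Map2k2), which activate MAP kinase (ERK1 is encoded by Mapk3), and this in turn activates the Rsk kinases (Rps6ka1, Rps6ka2 and Rps6ka3). Emi2, the product of Fbxo43, inhibits the anaphase promoting complex, the ubiquitin ligase that would otherwise destroy cyclin B and end the arrest. Emi1, the product of Fbxo5, inhibits the same ligase and is best known from the mitotic cycle. Much of this control acts on translation, phosphorylation and protein breakdown, which mRNA counts do not show.

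The cDNA was primed from poly(A) tails, so the annotated 3' ends are shown for the 5 genes on which the results turn. These are the last 30 bases of the transcript in the GENCODE annotation of GRCm38 (mm10), written as the mRNA strand 5' to 3', with AATAAA, the commonest polyadenylation signal, in capitals. Mos lies on the minus strand (this end at chr4:3870657-3870686), as do Map2k1 (chr9:64185770-64185799), Fbxo43 (chr15:36150060-36150089) and Fbxo5 (chr10:5799160-5799189), while Mapk3 lies on the plus strand (chr7:126765790-126765819).
Mos: ttttaggaAATAAAgttaccacgaacttca
Map2k1: tcaagttaaAATAAAagggacaagagattt
Mapk3: atataaatatagagatgtgtatatggatga
Fbxo43: aataattaaatttaaaatttacatattttc
Fbxo5: tttgtttagttaaAATAAAtttagaggtgt
The hexamer was searched on the mRNA strand, and 55.0% of 18256 protein-coding genes with an annotated 3' UTR hold it in a window of this length. Mos, Map2k1 and Fbxo5 hold it, and Mapk3 and Fbxo43 do not in these windows. The annotated 3' UTRs span 126 bases for Mos, 915 for Map2k1, 612 for Mapk3, 1584 for Fbxo43 and 411 for Fbxo5. Mos (chr4:3870657-3872105) is a single span of 1449 bases without an intron, so its mRNA cannot be told from its gene by splicing. Map2k1 overlaps Uchl4 and 2 noncoding genes on the opposite strand, and Rps6ka1 overlaps a pseudogene and 2 noncoding genes. The counting is not stated to use strand, so reads of these overlaps cannot be assigned to either gene with certainty.

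Total counts ran from 1375187 to 1892015 in wt/wt oocytes, were 6928548 in C3 and ran from 2016701 to 6926076 in mutant oocytes. D4 had the most genes with a count (13249, against 9871 to 11044 in the others). Levels are given as CPM, counts scaled to a common total after adjustment of the totals by TMM, on which 3 counts stood for 0.455 to 1.82 CPM. The targeted gene Kdm1a was at 12.1 to 38.7 CPM in wt/wt oocytes, 148 in C3 and 0 to 4.97 in mutant oocytes, and its log2 fold change was -5.03 (SE 0.86, edgeR adjusted p = 0.0011). A list of 10 oocyte markers summed to 10800 to 28600 CPM in wt/wt oocytes, 46700 in C3 and 50400 to 105000 in mutant oocytes. Gdf9 led this sum in every oocyte (172617 of 210890 counts in C3), so the sum mostly follows Gdf9. Single markers could differ from it. Zp1 had 39 counts in D3, next to 35 to 129 in wt/wt oocytes and 123 to 1550 in the other mutant oocytes. Of 17 cumulus and granulosa markers, 2 to 5 had a count in an oocyte. Their sum was 9.40 to 55.8 CPM in wt/wt oocytes, 62.9 in C3 and 82.0 to 148 in mutant oocytes, and Cyp19a1 led it in every oocyte (740 of 751 counts in D4). Has2, a cumulus gene, had 2 to 14 counts in wt/wt oocytes, 0 in C3 and 0 to 1 in mutant oocytes. Fshr, Lhcgr, Amh, Foxl2 and Inha were at 0 in all 10 oocytes. Both sums were higher in mutant than in wt/wt oocytes, and their part in the results below was not tested.

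Among the 9 genes, Map2k1, Mos and Fbxo43 had the highest mRNA levels in control oocytes. Levels were compared between genes as CPM per kb of annotated transcript. In wt/wt oocytes Map2k1 was highest at a mean of 305 CPM per kb, then came Mos at 245, Fbxo43 at 77.1, Mapk3 at 12.9, Rps6ka3 at 4.63, Fbxo5 at 1.79, Rps6ka1 at 0.706, Map2k2 at 0.376 and Rps6ka2 at 0.0965. Mos stood above Fbxo43, and Fbxo43 above Mapk3, in 4 of 4 wt/wt oocytes, as did Rps6ka3 above Fbxo5. The other neighbours were not separated by their spread, since Map2k1 stood above Mos, Mapk3 above Rps6ka3, Fbxo5 above Rps6ka1 and Map2k2 above Rps6ka2 in 3 of 4, and Rps6ka1 above Map2k2 in 2 of 4. C3 gave the same order, with Map2k2 and Rps6ka2 both at 0. In mutant oocytes the order began with Mos at 371 and Map2k1 at 346 CPM per kb, and Mapk3 at 159 stood before Fbxo43 at 46.1. Fbxo43 exceeded Fbxo5, and Rps6ka3 exceeded Rps6ka1, in 5 of 5 mutant oocytes. The other neighbours overlapped, with Map2k1 above Mapk3 in 4 of 5 and Mos above Map2k1, Mapk3 above Fbxo43, Fbxo5 above Rps6ka3 and Rps6ka1 above Map2k2 in 3 of 5, and Map2k2 above Rps6ka2 in 2 of 5. Because the cDNA reached at most some kilobases from the 3' end, per-kb levels of long transcripts are understated. With lengths limited to 3 kb, Rps6ka3 came to 11.1 and Fbxo43 to 108 CPM per kb in control oocytes, next to 12.8 for Mapk3.

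Mutant and control oocytes were compared with edgeR's quasi-likelihood test across 9198 genes, and a gene was called at a Benjamini-Hochberg adjusted p under 0.05 with a log2 fold change of at least 1 in either direction. A call was made for 25.9% of all genes tested, in 14.7% of them with the higher level in mutants and in 11.2% with the lower. Higher levels made up 56.7% of the calls, but 36.7% with library totals as scaling and 45.5% with GC and length trends removed. Of the 9 cascade genes, 7 passed the filter on low counts, and 2 of these, Mapk3 and Fbxo5, were called, both higher. That share is near the one over all genes. Mos, Map2k1, Rps6ka1, Rps6ka3 and Fbxo43 were not called. The median log2 fold change over all genes was 0.165.

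**Figure D1:**
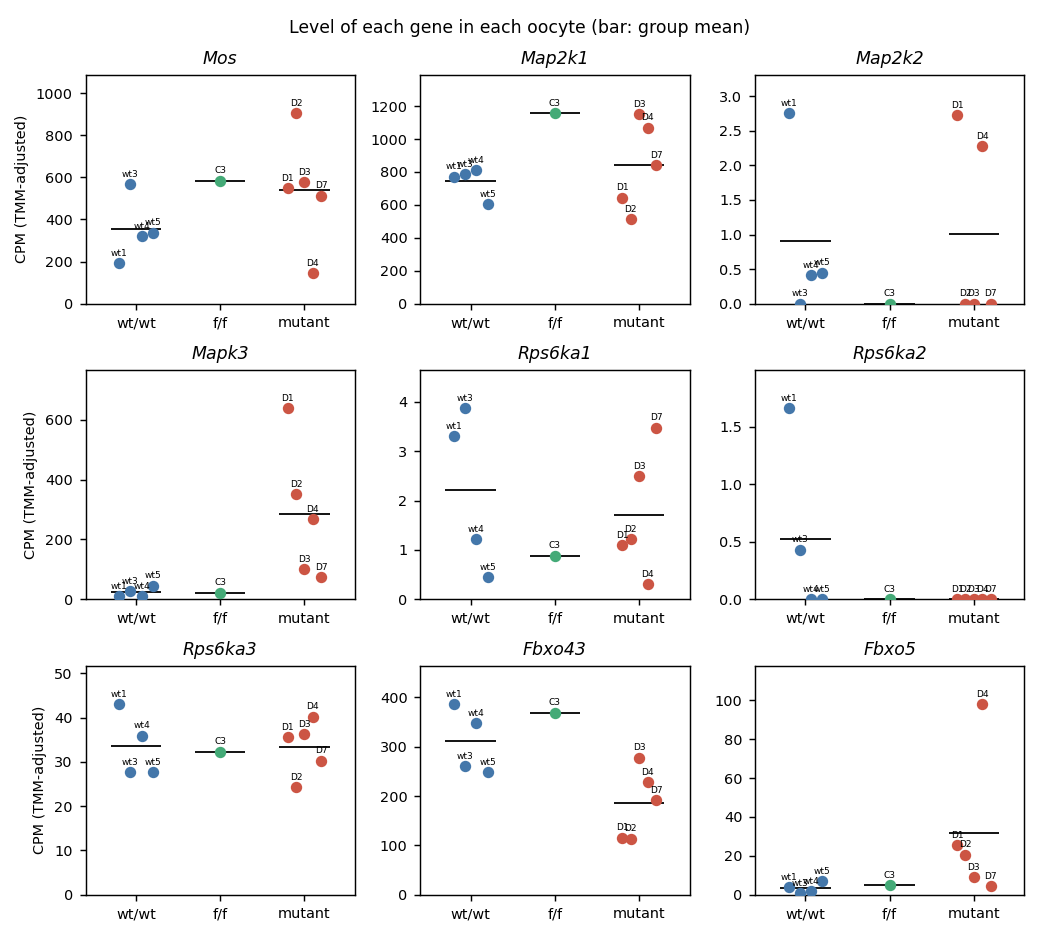
Level of the 9 genes in each oocyte, in CPM on a linear axis from 0 that is scaled for each gene, with points for single oocytes of the wt/wt (n = 4), f/f (n = 1) and mutant (n = 5) groups and a bar for the group mean. All 5 mutant points of Mapk3 (75.1 to 639 CPM) lie above all control points (9.79 to 45.2 CPM), while those of Rps6ka3 (24.3 to 40.2 CPM) overlap the control points (27.6 to 43.1 CPM), with D2 below all of them.

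Mos, the kinase at the head of the cascade, was abundant in every oocyte and varied as much within the groups as between them. Its level was 192 CPM in wt1, 567 in wt3, 322 in wt4 and 338 in wt5, and 585 in C3. It was 550 in D1, 907 in D2, 577 in D3, 144 in D4 and 513 in D7. D2 was the highest and D4 the lowest of all 10 oocytes, and the groups overlapped. Control oocytes averaged 401 ± 170 CPM (SD, n = 5) and mutants 538 ± 271 CPM (SD, n = 5), at a log2 fold change of 0.42 (SE 0.44, 95% interval -0.50 to 1.35, edgeR adjusted p = 0.499). The interval leaves room for a rise of more than 1 on the log2 scale.

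Map2k1, which encodes MEK1, was at 772 CPM in wt1, 788 in wt3, 810 in wt4, 605 in wt5 and 1160 in C3. In mutant oocytes it was at 645 in D1, 512 in D2, 1150 in D3, 1070 in D4 and 840 in D7. The highest and the lowest mutant oocytes enclosed all wt/wt oocytes. The log2 fold change was 0.03 (SE 0.34, 95% interval -0.68 to 0.74, edgeR adjusted p = 0.962). Map2k2, which encodes MEK2, had 5 counts in wt1, 5 in D1 and 15 in D4, 1 each in wt4 and wt5, and 0 in the other 5 oocytes, so it did not pass the filter. Its counts were at most 0.422% of the counts of the pair in any oocyte, and the annotated transcripts of Map2k1 (2436 bases) and Map2k2 (2405 bases) are of like length. Nearly all MEK mRNA counted was thus that of Map2k1 in all 3 genotypes.

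Mapk3, which encodes ERK1, was the member with the largest fitted fold change among those tested, and its groups did not overlap. It was at 10.5 CPM in wt1, 27.6 in wt3, 9.79 in wt4, 45.2 in wt5 and 21.9 in C3. In mutant oocytes it was at 639 in D1, 351 in D2, 101 in D3, 268 in D4 and 75.1 in D7. Groups without overlap in either direction were found for 16.2% of all genes tested. The mean rose from 23.0 ± 14.5 (SD, n = 5) to 287 ± 228 CPM (SD, n = 5), with a log2 fold change of 3.64 (SE 0.61, 95% interval 2.35 to 4.92, edgeR adjusted p = 0.000953). The fold change was 2.83 with GC and length trends removed and 4.10 without wt5. Among the wt/wt and mutant libraries numbered 3 to 5 alone it was 2.74. Mapk3 was called in each of these. The mutant oocytes differed widely among themselves, with D1 highest and D7 lowest. The summed oocyte markers, led by Gdf9, were 105000 CPM in D1, 70400 in D2, 55400 in D3, 50400 in D4 and 57200 in D7. Their part in the level of Mapk3 was not tested.

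The Rsk kinases showed no called difference. Rps6ka3, which encodes Rsk2, was at 43.1 CPM in wt1, 27.6 in wt3, 35.9 in wt4, 27.7 in wt5 and 32.3 in C3, and at 35.5 in D1, 24.3 in D2, 36.3 in D3, 40.2 in D4 and 30.3 in D7. The means of 33.3 ± 6.46 and 33.3 ± 6.15 CPM (SD, n = 5 each) differed by a log2 fold change of 0.00 (SE 0.33, 95% interval -0.70 to 0.71, edgeR adjusted p = 0.993). The SD of its log2 CPM over the 10 oocytes was 0.26, and 0.087% of the genes tested had a smaller one. The median SD of all genes was 0.95. Map2k1 was also steady, with an SD of 0.40 (smaller in 2.05% of genes), while Mapk3 (2.08) and Fbxo5 (1.74) were among the most variable (smaller SDs in 97.8% and 94.3% of genes).

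Rps6ka1, which encodes Rsk1, had 1 to 9 counts per oocyte, and its log2 fold change of -0.18 (SE 0.86, 95% interval -2.0 to 1.63, edgeR adjusted p = 0.895) is a measure of few reads. Rps6ka2, which encodes Rsk3, had 3 counts in wt1, 1 in wt3 and 0 in the other 8 oocytes, so a difference was not detectable at this depth. Rps6ka3 held 86.5 to 98.4% of the counts of these 3 Rsk genes in wt/wt oocytes, 97.3% in C3 and 89.7 to 99.3% in mutant oocytes. A further Rsk gene outside the 9, Rps6ka6, which encodes Rsk4, had a higher level than Rps6ka3 in all 10 oocytes. Per kb it was at 50.8 to 60 CPM in wt/wt oocytes, 24.8 in C3 and 15.4 to 43.6 in mutant oocytes, next to 3.80 to 5.95, 4.46 and 3.36 to 5.55 for Rps6ka3. Of the counts of all 4 Rsk genes, Rps6ka3 thus took 11.3 to 16.5% in wt/wt oocytes, 23.7% in C3 and 16.5 to 30.4% in mutant oocytes, and Rps6ka6 took most of the rest.

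Of the Emi genes, Fbxo5 was called higher and Fbxo43 was not called. Fbxo43, which encodes Emi2, was at 387 CPM in wt1, 261 in wt3, 348 in wt4, 248 in wt5 and 369 in C3. It was at 116 in D1, 114 in D2, 278 in D3, 229 in D4 and 192 in D7. Only D3 of the mutant oocytes lay within the control range, above wt3 and wt5. The means were 323 ± 63.6 and 186 ± 71.6 CPM (SD, n = 5 each), and the log2 fold change of -0.79 (SE 0.34, 95% interval -1.52 to -0.07) did not pass the test (edgeR adjusted p = 0.0963). With library totals as scaling it was called (log2 fold change -1.19, edgeR adjusted p = 0.0238), under a scaling that moved the median of all genes from 0.165 to -0.22. With limma Fbxo43 was at -0.92 (limma adjusted p = 0.0268), short only of the fold for a call. Among the wt/wt and mutant libraries numbered 3 to 5 alone it was at -0.37 (edgeR adjusted p = 0.51).

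Fbxo5, which encodes Emi1, was at 3.87 CPM in wt1, 0.861 in wt3, 2.04 in wt4, 7.16 in wt5 and 4.87 in C3, which stand for 2 to 22 counts. It was at 25.7 in D1, 20.7 in D2, 9.24 in D3, 98.2 in D4 and 4.48 in D7, which stand for 9 to 647 counts. D4 was far above all others, and D7 lay below C3 and wt5. The log2 fold change was 3.07 (SE 0.76, 95% interval 1.47 to 4.67, edgeR adjusted p = 0.00886). Without D4 it fell to 1.98 (edgeR adjusted p = 0.0406) and was still called. Among the wt/wt and mutant libraries numbered 3 to 5 alone it was 1.97 and not called (edgeR adjusted p = 0.084). Fbxo5 was the rarer mRNA of the pair also per kb, below Fbxo43 in 5 of 5 mutant oocytes. Of the counts of both genes it took 0.328 to 2.80% in wt/wt oocytes, 1.30% in C3 and 2.27 to 30% in mutant oocytes.

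**Figure D2:**
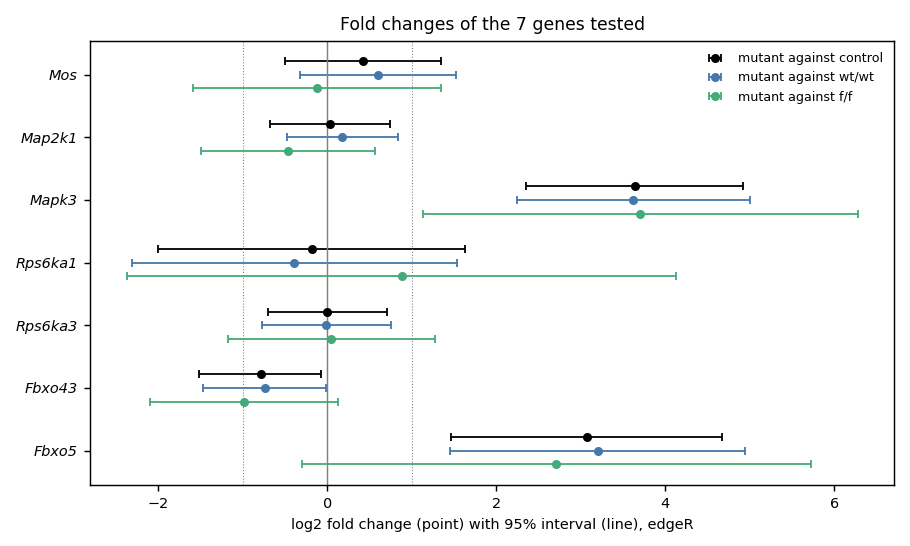
Log2 fold changes of the 7 genes tested (points) with 95% intervals (lines) from edgeR, for mutant against control, wt/wt and f/f oocytes, with dotted lines at a change of 1 in either direction. Mapk3 and Fbxo5 lie at 3.64 and 3.07 against control oocytes, and the intervals against the 1 f/f oocyte are the widest.

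To ask how the result depends on which control is used, the 3 genotypes were fitted together. Against wt/wt oocytes alone 31.7% of all genes were called, among them the same 2 cascade genes. Mapk3 was higher by 3.62 (SE 0.65, edgeR adjusted p = 0.000821) and Fbxo5 by 3.2 (SE 0.83, edgeR adjusted p = 0.00811). Against the f/f oocyte 1.15% of all genes were called and no cascade gene was, though the 95% interval left out 0 for Mapk3. The fitted values there were 3.7 for Mapk3 (SE 1.23, 95% interval 1.13 to 6.28, edgeR adjusted p = 0.117) and 2.71 for Fbxo5 (SE 1.43, 95% interval -0.30 to 5.72, edgeR adjusted p = 0.295). Both were close to those against wt/wt oocytes, with wider intervals from the single oocyte. Between the f/f and the wt/wt oocytes 3.49% of all genes were called and none of the cascade genes. These comparisons share their oocytes and are not independent of each other.

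Ratios within an oocyte do not depend on the scaling between oocytes, and 6 of them were compared by a two-sided exact permutation test over oocytes. With 5 against 5 oocytes the smallest p it can give is 0.00794. The log2 ratio of Fbxo43 to Fbxo5 was 5.07 to 7.92 in wt/wt oocytes, 6.21 in C3 and 1.22 to 5.35 in mutant oocytes. Control oocytes averaged 6.61 ± 1.08 and mutants 3.21 ± 1.80 (SD, n = 5 each), a difference of -3.39 (exact p = 0.0159, adjusted over the 6 ratios 0.0952). wt5 was the control oocyte that overlapped the mutant oocytes. The log2 ratio of Mos to Fbxo43 was higher by 1.18 (exact p = 0.135, adjusted 0.270), with D2 highest and wt1 lowest. Neither passed the correction, nor did the ratios of Map2k1 to Map2k2 and of Rps6ka1 or Rps6ka2 to Rps6ka3 (adjusted p = 0.825, 0.825 and 0.476 by the exact test), and those with Map2k2, Rps6ka1 or Rps6ka2 rest on few counts.

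**Figure D3:**
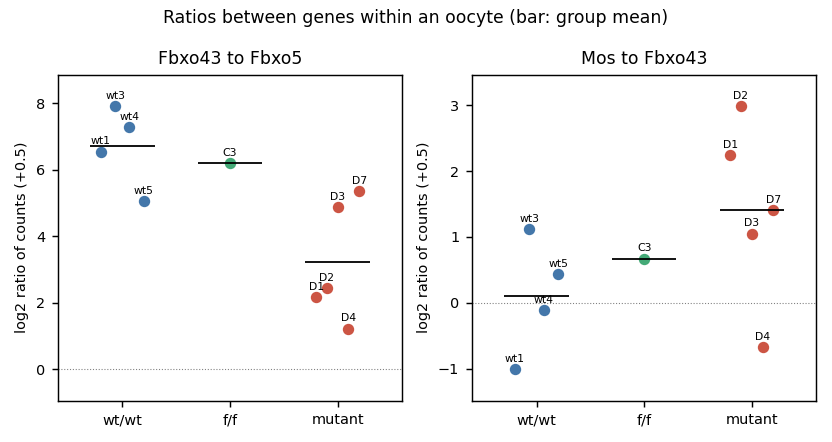
Log2 ratios of counts (with 0.5 added) between 2 genes of the same oocyte, with points for oocytes of each group and bars for group means. For Fbxo43 to Fbxo5 the mutant oocytes lie between 1.22 and 5.35 and the control oocytes between 5.07 and 7.92, and for Mos to Fbxo43 the groups overlap.

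For the names C3, D3, D4 and D7, 1 of the libraries carries the suffix DNA, whose meaning the labels do not give, and the cascade genes differed between the libraries of a name. Mos took a smaller share of total counts in the suffixed library in 4 of 4 names, at 0.376 to 0.556 of the share in the other. In C3 the shares were 210 and 558 CPM of unadjusted totals, in D3 255 and 598, in D4 95.8 and 172, and in D7 314 and 627. Among 2870 genes with at least 20 counts in all 8 libraries, 9.16% were lower in the suffixed library of all 4 names and 42.3% were higher. The median ratio over these genes was 1.32 in C3, 1.2 in D3, 1.06 in D4 and 1.27 in D7. Fbxo43 was higher in 4 of 4, at 1.31 to 1.44, as was Rps6ka3 at 1.15 to 1.65, so both lay near the median gene in some of the names. Mapk3 was higher in C3 (2.34) and lower in D3, D4 and D7 (0.678 to 0.835). With 1 library per oocyte in place of the sum, the log2 fold changes were 0.39 for Mos, 3.82 for Mapk3, -0.88 for Fbxo43 and 3.14 for Fbxo5. The wt/wt oocytes, D1 and D2 have no suffixed library, so the suffix is spread unevenly over the genotypes.

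**Figure D4:**
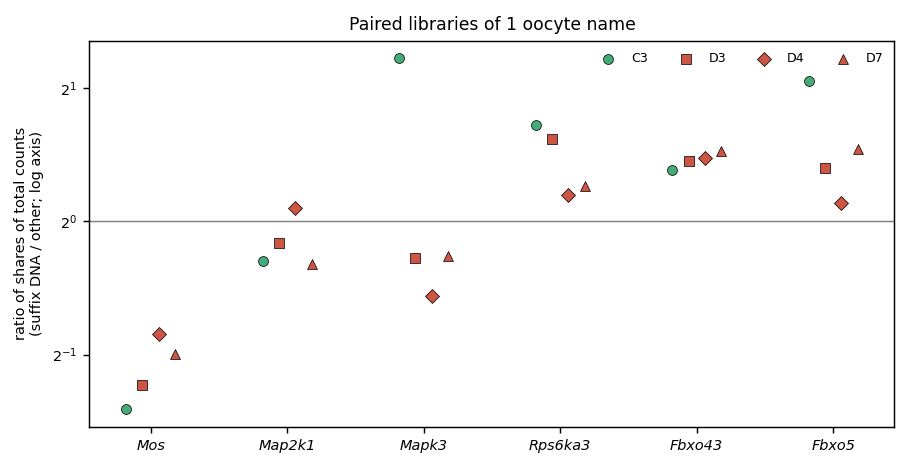
Share of total counts in the library with the suffix DNA divided by that in the other library of the same name, on a log axis, for 6 genes in C3, D3, D4 and D7. All 4 points of Mos lie between 0.376 and 0.556, below 1, and all 4 of Fbxo43 between 1.31 and 1.44, where the median gene lies between 1.06 and 1.32.

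The genes whose levels followed those of Mos, Fbxo43 and Fbxo5 most closely were found by Pearson's r of log2 CPM over the 10 oocytes, which share genotype and depth differences. For Mos they were Troap (r = 0.964), 0610007P14Rik (0.960), Slc3a2 (0.953), Dhrs1 (0.932) and Gsk3a (0.916). For Fbxo43 they were Adam10 (0.966), Zfand5 (0.964), Ncoa4 (0.962), Nfs1 (0.957) and Rap1b (0.957). For Fbxo5 they were Mfsd2a (0.972), Tomm20l (0.965), Rnf216 (0.961), Calr4 (0.954) and Rps12 (0.953). Among the cascade genes themselves Fbxo43 and Mapk3 ran opposite to each other (r = -0.885), Fbxo5 and Mapk3 ran together (0.808). Mos had r = -0.726 with Rps6ka3 and -0.466 with Fbxo43, and Fbxo5 had -0.645 with Rps6ka1. The last value rests on 1 to 9 counts of Rps6ka1 per oocyte, with 2 in D4, where Fbxo5 was highest. The genes listed for Mos, Fbxo43 and Fbxo5 were picked as the highest r among the 9198 genes tested, and no r was tested.

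Other genes of the pathway were taken from 9 lists of 96 genes, of which 95 were in the table and 71 passed the filter. Of these, 13 were called higher and 9 lower (31.0%, beside 25.9% of all genes), and their median log2 fold change was 0.25, beside 0.165. Without D1 8 of them were called higher and without wt3 8, with GC and length trends removed 7 and with limma 20. With library totals as scaling 7 were called higher and 12 lower, and all of the 22 kept their direction. None of the 22 was called with the f/f oocyte alone as control.

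Around the kinases, the list of Raf relatives and scaffolds had 6 genes tested, of which 1, Pebp1, was called higher (16.7%, below the 25.9% of all genes). Pebp1, an inhibitor of Raf signalling, averaged 142 ± 148 CPM in control oocytes and 492 ± 180 CPM in mutants (SD, n = 5 each, log2 fold change 1.79, edgeR adjusted p = 0.0284), and wt5 at 388 lay among the mutant oocytes. The call was lost without wt1, wt3, wt4, D2 or D3, with library totals as scaling and with GC and length trends removed. Lamtor3, a MEK1 scaffold, had a log2 fold change of -0.22 (edgeR adjusted p = 0.645) and Shoc2, a scaffold of Raf activation, had -0.37 (edgeR adjusted p = 0.499). Of 5 genes tested for the other MAP kinase branches 1 was called (20%, beside 25.9% of all genes), Mapk8, which encodes JNK1. It fell by 1.48 on the log2 scale (edgeR adjusted p = 0.00788), from 411 to 714 CPM in control to 119 to 327 in mutant oocytes, without overlap. Map2k4 (-0.30) and Mapk9 (0.42), with the highest CPM of that list's other genes, did not pass.

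Of 3 relatives of the Rsk kinases tested, 1 was called (33.3%, beside 25.9% of all genes). Rps6kb1, the ribosomal S6 kinase of the mTOR pathway, fell by 1.26 (edgeR adjusted p = 0.0218), a call lost without wt4 or D1, without the filter on low counts and with GC and length trends removed. It was at 21 to 29 CPM in control and 8.75 to 11.7 in mutant oocytes. Rps6ka6 was at 198 ± 55.6 CPM in control oocytes against 113 ± 46.2 CPM in mutants (SD, n = 5 each). Its log2 fold change of -0.80 did not pass (edgeR adjusted p = 0.113). Rps6ka5, which encodes the related kinase Msk1, had -0.73.

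Of 6 MAP kinase phosphatases tested, which remove the activating phosphates of ERK and its relatives, Dusp2 and Dusp6 were called higher (33.3%, beside 25.9% of all genes). Both were scarce: Dusp6 was at 0 to 1.79 CPM in control and 1.64 to 12 in mutant oocytes. Dusp2 was at 0 to 0.816 and 0 to 6.98 CPM, with at most 3 counts in each control oocyte, so no fold is given. Both passed the filter on low counts only through the mutant oocytes, so their calls do not support a change of the list. The call of Dusp2 was lost without wt1, wt3, D1 or D4, with counts thinned to the smallest total and with GC and length trends removed. Dusp7 was at 999 CPM in C3 and 18.3 to 53.0 in wt/wt oocytes, next to 353 to 709 in mutant oocytes, and was not called (1.12, edgeR adjusted p = 0.35). Dusp1 had -0.17. Neither of the 2 oocyte MAP kinase substrates passed, among them Cdk2ap2 (1.12, edgeR adjusted p = 0.0620).

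The PP2A list holds the phosphatase that keeps Emi2 stable, with its B56 subunits, and 2 of 9 genes tested were called, both lower (22.2%, near the 25.9% of all genes). The list as a whole did not lean that way, with a median log2 fold change of 0.887 and 5 of the 9 fitted values above 0. Ppp2r1b fell by 2.09 (edgeR adjusted p = 0.00663) and Ppp2r5e fell by 1.48 (edgeR adjusted p = 0.00596). Ppp2r1b is a scaffold subunit and was at 16.6 to 35.5 CPM in control and 2.73 to 11.5 in mutant oocytes. Ppp2r5e, a B56 subunit, was at 39.0 to 73.4 and 16.8 to 26.3 CPM. A further B56 subunit, Ppp2r5c, was lower without overlap (log2 fold change -0.89, edgeR adjusted p = 0.0332) but short of the fold needed for a call. The major scaffold subunit Ppp2r1a had 0.94 (edgeR adjusted p = 0.0701).

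The list of genes by which calcium at fertilization leads to the breakdown of Emi2 had 10 genes tested, with 4 called higher and 2 lower (60%, beside 25.9% of all genes). The 10 fitted log2 fold changes had a median of -0.154, with 4 above 0. Camk2g, the calmodulin kinase that marks Emi2 for breakdown, rose by 2.6 (SE 0.38, edgeR adjusted p = 0.000548), from 27.1 to 64.4 CPM in control to 134 to 345 in mutant oocytes, without overlap. Skp1a, a subunit of the SCF ubiquitin ligase, rose by 3.25 (edgeR adjusted p = 0.00104), and its mutant level was highest in D4 at 3370 CPM. Plk1, the polo kinase that binds marked Emi2, rose by 1.90 (edgeR adjusted p = 0.0278) with D1 and D2 far above the other mutant oocytes. D4 at 31.0 CPM lay below wt3, wt4 and C3 (35.3 to 39.6 CPM), and the call was lost without wt1, D1 or D2, with library totals as scaling and with GC and length trends removed. The calcineurin genes went opposite ways: Ppp3ca, a catalytic subunit, rose by 2.17 (edgeR adjusted p = 0.00405) and Ppp3r1, the regulatory subunit, fell by 1.86 (edgeR adjusted p = 0.0129). C3 at 29.0 CPM lay among the mutant oocytes for Ppp3r1, apart from the wt/wt oocytes at 117 to 272. Fbxw11, an F-box protein of the same ligase, fell by 1.17 (edgeR adjusted p = 0.0316), a call lost without wt1, wt4, wt5, D1, D2 or D7. Cul1 (-0.18) and Rbx1 (-0.48) did not pass.

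Of 18 genes of the anaphase promoting complex and its partners, the target of Emi2, all were tested, with calls for 6 that rose and 1 that fell (38.9%, beside 25.9% of all genes). Anapc4 rose by 1.94 (edgeR adjusted p = 0.00379) and Anapc11, the RING subunit, by 1.95 (edgeR adjusted p = 0.0103), both without overlap. Fzr1, the activator Cdh1, rose by 3.06 (edgeR adjusted p = 0.00586), though D3 at 6.75 CPM lay below C3 at 7.97. Neither Fzr1 nor Dusp6 was called among the wt/wt and mutant libraries numbered 3 to 5 alone. The same holds for Anapc15, Ube2c and Ube2s of this list and for Plk1, Rps6kb1 and Pum2. Anapc15 rose by 1.66 (edgeR adjusted p = 0.0352) and Ube2c, a ubiquitin-conjugating enzyme of the complex, by 1.23 (edgeR adjusted p = 0.0335). Both calls were lost with library totals as scaling and with GC and length trends removed, that of Anapc15 also without wt3, wt4, D1 or D4 and with counts thinned, and that of Ube2c without wt3, wt4, D1 or D2. Anapc11 was not called with library totals as scaling. Cdc27 fell by 1.13 (edgeR adjusted p = 0.0172), from 171 to 340 CPM in control to 88.1 to 146 in mutant oocytes, and was not called with GC and length trends removed. The activator Cdc20 had 1.31 and did not pass (edgeR adjusted p = 0.0862), and Cdc23 had 0.21.

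**Figure D5:**
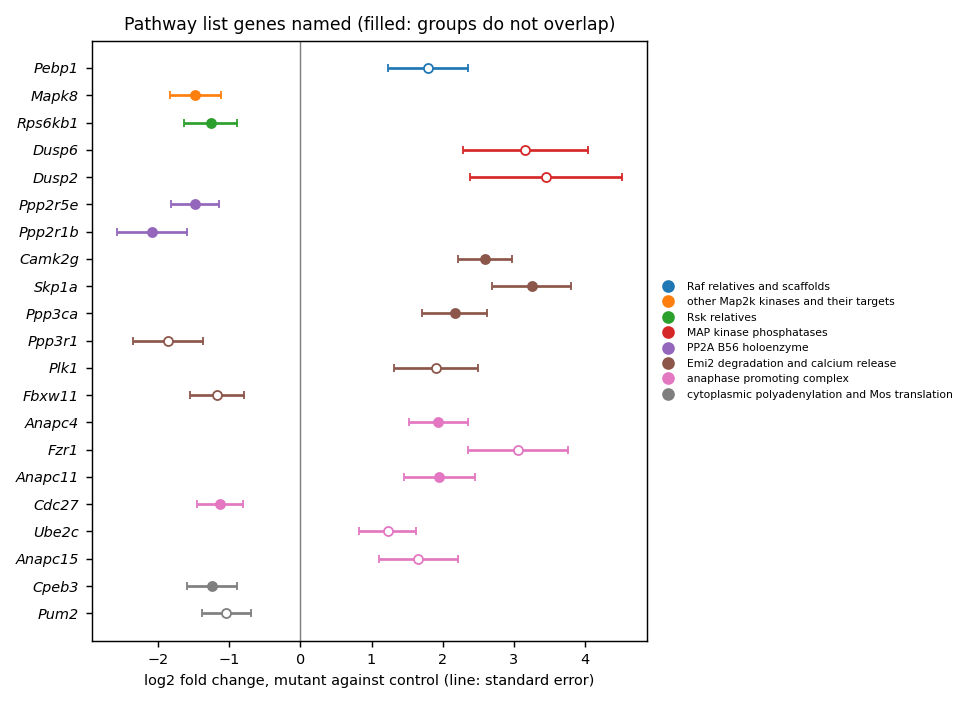
Log2 fold changes, mutant against control oocytes, with their standard errors, of the called genes named from the pathway lists, coloured by list and filled where the oocytes of both groups did not overlap. Camk2g at 2.6 and Skp1a at 3.25 lie on the higher side without overlap, and Mapk8 at -1.48 and Ppp2r5e at -1.48 on the lower side.

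Translation of Mos depends on cytoplasmic lengthening of its poly(A) tail, and 2 of 12 genes tested from that list were called, both lower (16.7%, beside 25.9% of all genes). Cpeb3, a relative of the RNA-binding protein that starts this lengthening, fell by 1.24 (edgeR adjusted p = 0.0180), from 62.7 to 113 CPM in control to 23.0 to 59.2 in mutant oocytes. Pum2, an RNA-binding repressor, fell by 1.04 (edgeR adjusted p = 0.0369), a call lost without wt1, wt3, wt4, C3, D1, D2 or D4, under either other filter on low counts and with GC and length trends removed. Dazl, a germ cell RNA-binding protein, had -0.99 (edgeR adjusted p = 0.0394), just short of the fold for a call, and the poly(A) polymerase Papd4 had -0.49. Since poly(A) tails primed the cDNA, a change in tail length and a change in mRNA amount cannot be told apart in these counts.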

How the data were processed

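The authors deposited raw counts of reads per RefSeq gene for each library of single-oocyte cDNA. Reads were aligned to mm10 with TopHat2 2.0.6 and counted with HTSeq (0.5.3p9 in the submitters' processing notes, which differ from the paper on that version). The cDNA was primed from poly(A) and covers the part of a transcript nearest its 3' end. Libraries sharing a name were summed to 1 oocyte. The genotype comparison used edgeR 4.0.16 under R 4.3.3 (TMM, glmQLFit, glmQLFTest, genotype as the term) over 9198 genes, the top 60% of 15432 with a count, with Benjamini-Hochberg adjustment. The common biological coefficient of variation was 0.609. The scaling factors ran from 1.3 to 1.36 in wt/wt oocytes, were 0.652 in C3 and ran from 0.779 to 0.952 in mutants. They thus set the wt/wt oocytes apart from all others. Total counts of 1375187 to 6928548 per oocyte set the precision. Log2 CPM used a prior count of 2, and ratios had 0.5 added to both counts. Coordinates came from GENCODE (GRCm38), matched by name for 94.9% of genes. The fit was tested on simulated counts first. DESeq2 1.42.0 and limma 3.58.1, other scalings and filters, and each oocyte left out were alternatives.

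The 9 genes and the lists were chosen with earlier results of these data known. Named besides them were Kdm1a, for each list up to 6 called genes by p and the 2 most abundant not called, and for Mos, Fbxo43 and Fbxo5 the 5 genes with the highest r. Of the 6 ratios, 1 counted in the adjustment is not reported here. Libraries of cleaved embryos were not analysed here.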

Additional observations from a re-analysis of the deposited data

Results flagged for a closer look

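In groups of 4 or 5 oocytes, 3 values stood apart from the rest of their group by a gap larger than Dixon's 95% critical value. They gave 4 marks in 26 groups checked, because the wt/wt oocytes lie within the control group. Chance marks about 1.3 of 26 groups, and the groups are not independent. Fbxo5 was at 98.2 CPM in D4, next to 25.7 CPM in the mutant oocyte nearest to it. Map2k2 was at 2.76 CPM in wt1, which stood apart both among the 4 wt/wt and among the 5 control oocytes, and Rps6ka2 was at 1.66 CPM in wt1 among the control oocytes. The values of Map2k2 and Rps6ka2 rest on 5 and 3 counts.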

How the results depend on the processing

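Mapk3 was called under every alternative but the f/f oocyte alone as control (log2 fold change 3.73, adjusted p = 0.172), with 2.64 to 4.10 over all of them. Fbxo5 ran from 1.97 to 3.42 and was not called with the f/f oocyte alone (2.71, adjusted p = 0.329). With the f/f oocyte alone, 3 genes, 0 cascade genes, and 0 pathway genes in either direction were called, where the fit has 1 control oocyte that is assumed to vary like the mutant oocytes. The replicate numbers of the labels do not pair the oocytes (correlations of deviations 0.00499, 0.143 and -0.0276). A fit with a replicate block over the libraries numbered 3 to 5 called 1 cascade gene, as did the same libraries without the block. Mutant libraries 4 and 5 both carry the name D3, so these fits hold 2 mutant oocytes by name, and their p-values are too small for that. There Fbxo5 was 2.13 (adjusted p = 0.0713) and 1.97 (adjusted p = 0.0840), and Rps6ka1 was 0.178 and 0.037. Of the 22 pathway calls 21 were tested there and 12 stayed, with the block and without it. Anapc15, Dusp6, Fzr1, Plk1, Pum2, Rps6kb1, Ube2c and Ube2s were lost in both fits. Anapc11 was lost only with the block and Pebp1 only without it. With library totals as scaling Fbxo43 was called at -1.19, and 7 pathway genes were called higher. That count was 20 with limma and 7 with GC and length trends removed. Genes whose change was near 0 changed sign. Mos was -0.090 with the f/f oocyte alone and -0.053 with GC and length trends removed. Map2k1 was -0.042 with limma, -0.34 with library totals, -0.0345 with every library its own sample, -0.44 with the f/f oocyte alone and -0.27 with the trends removed. Rps6ka1 was 0.19 with counts thinned. Rps6ka3 was -0.051 with limma, -0.0097 with upper-quartile scaling, -0.44 with library totals and -0.027 with counts thinned. The Map2k1 to Map2k2 ratio was 0.33 with wt/wt oocytes alone. With every library its own sample the Fbxo43 to Fbxo5 difference was -3.14 (adjusted exact p = 0.026). That p treats libraries of the same name as independent and is too small if they are 1 oocyte. The causes of the other shifts between settings were not tested.

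The alternatives for the pathway counts were chosen after seeing the data. With each oocyte left out in turn, 1607 to 2885 genes and 2 cascade genes were called, and 8 to 17 pathway genes higher and 6 to 10 lower. The log2 fold changes were 0.17 to 0.68 for Mos, -0.10 to 0.18 for Map2k1, -0.55 to 0.24 for Rps6ka1, -0.063 to 0.11 for Rps6ka3, -0.98 to -0.66 for Fbxo43, 1.98 to 3.42 for Fbxo5 and 3.12 to 4.10 for Mapk3. The ratio differences were -3.93 to -2.90 for Fbxo43 to Fbxo5, -1.01 to 0.33 for Map2k1 to Map2k2 and -0.52 to 0.40 for Rps6ka1 to Rps6ka3. That of Fbxo43 to Fbxo5 passed without wt5 (-3.78) or D7 (adjusted exact p = 0.0476 each). Only wt5 and D7 overlap in this ratio (log2 5.07 and 5.35). Leaving out either one separates the groups, so nothing is drawn from these passes. Without a filter on low counts, Map2k2 (adjusted p = 0.729) and Rps6ka2 (adjusted p = 0.121) were not called. Depth limits Map2k2, Rps6ka1 and Rps6ka2, with at most 15 counts in an oocyte.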
